A study of Mus musculus with 12 samples.

Results

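The 10 genes described here encode leucine-rich repeat adhesion proteins with few coding exons: Lingo1 and Lingo3, Lrrc4b and Lrrc4c, Lrfn3 and Lrfn4, Lrrn1 and Lrrn3, Flrt2 and Flrt3. They were found by gene symbol, as 10 of the 54532 genes in the deposited table, of which 22046 are protein-coding. They belong to 5 families and were chosen by the genotype comparison of these same libraries, in which some of them had higher FPKM in Mettl14 knockout limb buds. The differences between the genotypes are therefore a description, with no test. The comparison of polysome with input RNA played no part in the choice and was tested.

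RNA was taken from limb buds of E12.5 mouse embryos, when the limb skeleton is being laid down. The conditional knockout (cKO) is labelled Mettl14 flox/flox, and the control is a heterozygote (cHet) with 1 wild-type and 1 floxed allele, so that all groups carry at least 1 floxed allele. From each cytoplasmic lysate RNA was sequenced after isolation of polysomes on a sucrose gradient (polysome) and without it (input), which gives cKO polysome, cHet polysome, cKO input and cHet input groups of 3 libraries each. The labels call them biological replicates. The Cre driver, the deleted part of Mettl14, the number of embryos per lysate and the strandedness of the libraries are not given in the sources used here. Limb mesenchyme markers were detected in all 4 groups, with a summed level of 738 to 1898 FPKM over 8 genes. In such tissue, a change in the number of cells of a type and a change in RNA per cell cannot be told apart.

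Leucine-rich repeats fold into curved surfaces that bind other proteins outside the cell, and the 5 families are best known from the nervous system, where they guide axons and organise synapses. FLRT proteins also act in embryonic tissues outside it, where they bind UNC5 receptors, latrophilins and FGF receptors. METTL14 is the partner of METTL3 in the enzyme that methylates adenosines of mRNA to N6-methyladenosine (m6A), most often within sequences built around GGAC. The mark is dense in long exons and around stop codons, is kept away from exon junctions, and is known to shorten the life of many mRNAs.

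All 10 genes had 1 or 2 coding exons. Of them, 6 carried their whole coding sequence in 1 exon and 4 (Lingo1, Lrrc4b, Lrfn3 and Lrfn4) in 2 exons, in the GENCODE M21 annotation of GRCm38. Their coding sequences were 1770 to 2151 bases long. The largest coding exon was 1349 to 2151 bases and held 70.6% to 100% of the coding sequence. Among 11872 protein-coding genes tested, the median was 8 coding exons with 26.5% of the coding sequence in the largest one, and 11.9% had 1 or 2 coding exons. A coding exon of at least 1349 bases was present in 8.79% of them. Lrrc4c was the exception in its untranslated part, with 7 exons in its transcript against 2 or 3 in the other 9.

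The genes split into 2 sets by base composition. Lingo1, Lrfn3, Lingo3, Lrrc4b and Lrfn4 had transcripts of 58.0% to 65.6% GC, and Flrt2, Flrt3, Lrrc4c, Lrrn3 and Lrrn1 had 41.8% to 47.3%, around an all-gene median of 50%. The sets largely followed the families: both LINGO and both LRFN genes were in the first, and both LRRN and both FLRT genes in the second. Only the LRRC4 family was split, with 63.1% GC in Lrrc4b and 42.5% in its paralog Lrrc4c. Paralogs shared 58.5% (Flrt2 and Flrt3) to 66.2% (Lrrc4b and Lrrc4c) of aligned coding bases, so that none is a near-identical copy of another. Counted on the mRNA strand of the coding sequence, GGAC occurred 15 times in Lingo3 (8.47 per kb), 12 times in Lingo1 (6.44 per kb) and 11 times in Lrfn3 (5.85 per kb). Flrt2 held 3 (1.51 per kb), and the all-gene median was 4.94 per kb with quartiles of 3.41 and 6.62. Only 4 of the 10 genes were above that median. A match is a description of the letters and does not show that a site is methylated.

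The last 90 coding bases, up to and including the stop codon, are shown for 6 genes because that is the part of the mRNA where m6A is known to be dense and because they set the paralogs Lrrc4b and Lrrc4c, whose mean levels have the widest ratio of any pair (13.6 against 0.786 FPKM), side by side. Each is read 5′ to 3′ on the mRNA strand from GENCODE M21 on GRCm38, with every GGAC in capitals. GGAC was present in this window in 5 of the 10 genes and in 36.8% of all tested protein-coding genes.
Lingo1 (chr9:56619459-56619548, minus strand): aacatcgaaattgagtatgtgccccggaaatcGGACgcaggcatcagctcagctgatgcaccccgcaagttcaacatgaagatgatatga
Lingo3 (chr10:80834325-80834414, minus strand): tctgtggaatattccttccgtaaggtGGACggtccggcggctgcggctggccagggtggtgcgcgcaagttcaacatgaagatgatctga
Lrrc4b (chr7:44462746-44462835, plus strand): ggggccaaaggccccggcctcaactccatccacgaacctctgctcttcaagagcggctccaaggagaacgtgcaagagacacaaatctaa
Lrrc4c (chr2:97630864-97630953, plus strand): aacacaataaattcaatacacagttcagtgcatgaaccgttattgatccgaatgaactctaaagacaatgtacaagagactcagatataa
Lrfn3 (chr7:30355638-30355727, minus strand): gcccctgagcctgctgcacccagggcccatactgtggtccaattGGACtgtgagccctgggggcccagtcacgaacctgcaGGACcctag
Lrrn1 (chr6:107569304-107569393, plus strand): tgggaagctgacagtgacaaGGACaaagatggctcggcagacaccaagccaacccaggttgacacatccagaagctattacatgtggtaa
The windows of both LINGO genes held 1 GGAC each, that of Lrfn3 held 2, that of Lrrn1 held 1, and those of both LRRC4 genes held 0.

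Levels are FPKM: reads assigned to a gene, divided by its length in kb and scaled to a common library size. Depth was 10349912 to 30068823 assigned reads per library, and 1 read in 1 kb was worth 0.0320 to 0.0930 FPKM. Mettl14 itself stood at 2.73, 2.81 and 3.29 FPKM in cKO polysome libraries, against 2.83, 3.07 and 3.02 in cHet polysome libraries. In input RNA it stood at 2.60, 3.32 and 1.26 FPKM in cKO, against 4.09, 4.03 and 4.04 in cHet, so that the targeted gene was lower in all cKO input libraries and overlapped in polysome RNA. Across all tested genes, limma called 0 of 12877 genes between the genotypes in polysome RNA (2743 at an unadjusted p under 0.05) and 0 of 12977 in input RNA (1943 at an unadjusted p under 0.05). A count model with voom on the recovered reads also called 0 in both, with 2837 and 2060 genes at an unadjusted p under 0.05. The cKO input replicate 3 stood apart by base composition. Its median deviation from the cHet mean was -0.62 (log2) over the 3958 genes lowest in GC and 0.38 over the 3958 genes highest in GC, whereas the other 5 cKO libraries lay between -0.05 and 0.10 in both. The input values of the 10 genes and the ratios built on them are also given without it.

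Averaged over the 12 libraries, Lrfn4 was the most abundant gene of the set at 47.9 FPKM. Lrrn1 (17.9), Lrfn3 (16.7), Flrt2 (16.2), Flrt3 (14.3) and Lrrc4b (13.6 FPKM) followed, and neighbours in this order overlapped across libraries. Lingo1 averaged 5.58, Lrrn3 3.41, Lingo3 2.97 and Lrrc4c 0.786 FPKM. Lrrc4c rested on 32 to 134 reads per library and Lingo3 on 18 to 555, the lowest counts of the set. The order depended on the group: in cHet input, Lrrc4b averaged 5.35 FPKM and Flrt2 18.6 FPKM, while in cKO polysome RNA Lrrc4b averaged 22.4 and Flrt2 16.4 FPKM.

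**Figure D1:**
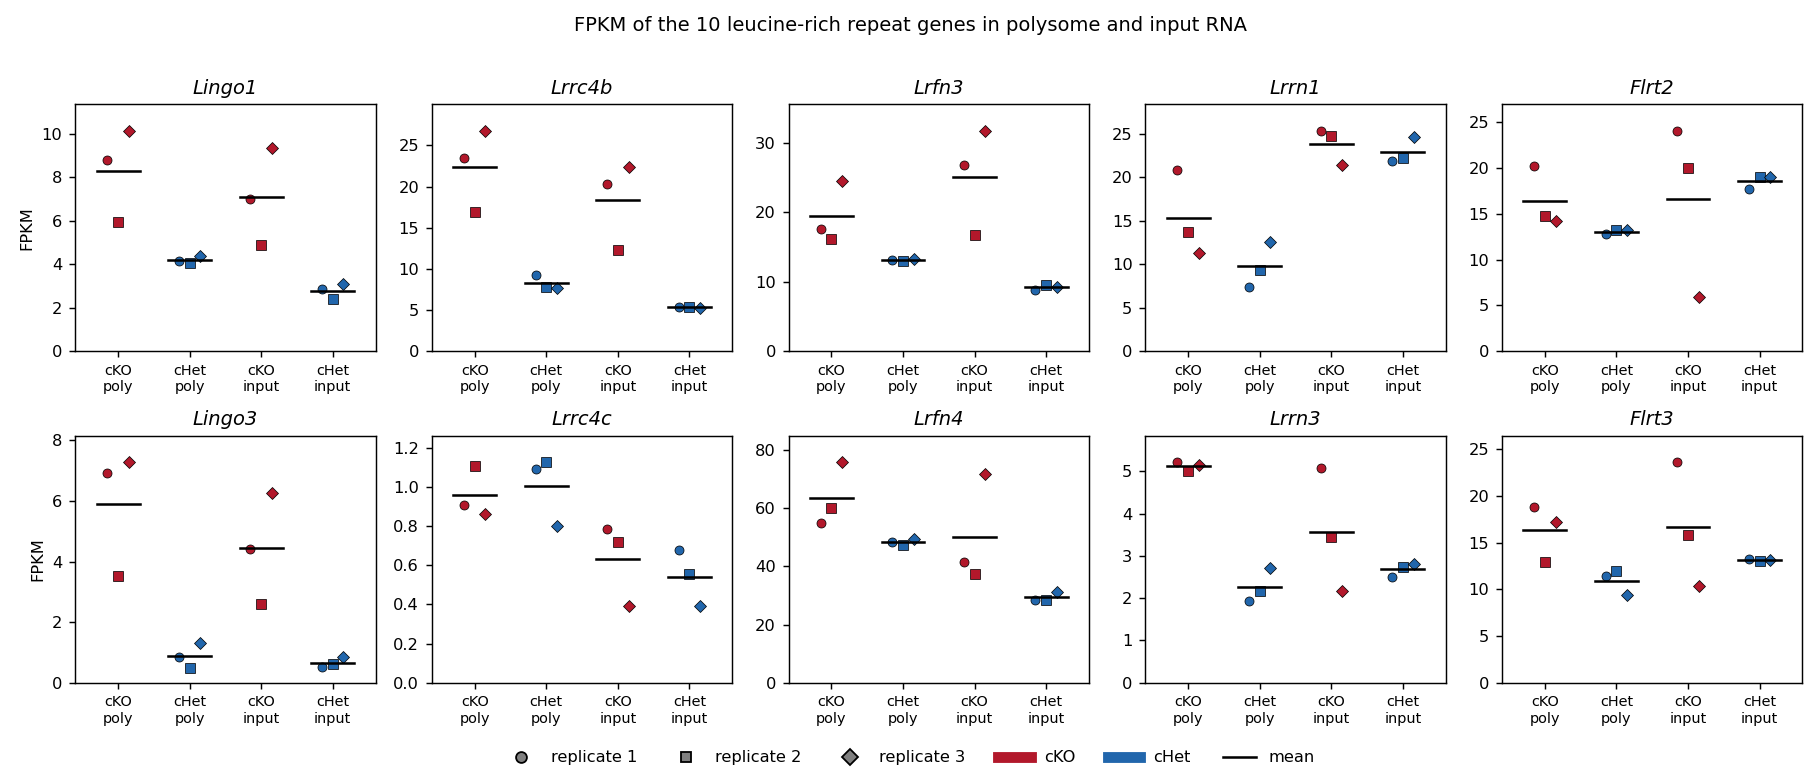
FPKM (vertical axis, linear from 0, scaled per gene) of the 10 genes in each of the 12 libraries, by group; each marker is 1 library, its shape the replicate number, and the black line the group mean of 3. Lingo3 reached 3.53 to 7.27 FPKM in cKO polysome libraries and 0.471 to 1.32 in cHet polysome libraries, and Flrt2 stood apart from the other 2 cKO input libraries at 5.88 FPKM in replicate 3.

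The LINGO genes encode transmembrane proteins, of which LINGO1 is known as a Nogo receptor partner that restrains myelination and axon regrowth. Lingo3 (ENSMUSG00000051067, chr10:80832801-80844039, minus strand) showed the widest genotype difference of the 10. In polysome RNA it stood at 6.92, 3.53 and 7.27 FPKM in cKO, against 0.864, 0.471 and 1.32 in cHet. Its input values were 4.42, 2.61 and 6.26 FPKM in cKO, against 0.521, 0.607 and 0.843 in cHet. Every cKO library lay above every cHet library of its fraction, with log2 differences of 2.64 in polysome and 2.52 in input RNA. Lingo1 (ENSMUSG00000049556, chr9:56618475-56796468, minus strand) stood at 8.78, 5.91 and 10.1 FPKM in cKO polysome libraries, against 4.17, 4.05 and 4.39 in cHet polysome libraries. Its input values were 6.98, 4.88 and 9.33 FPKM in cKO, against 2.87, 2.38 and 3.08 in cHet. The groups again did not overlap, and the log2 differences were 0.93 in polysome and 1.27 in input RNA. In both genes, replicate 2 was the lowest cKO library of each fraction.

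The LRRC4 genes encode netrin-G and receptor-phosphatase ligands of the postsynaptic membrane, known from neurons. Lrrc4b (ENSMUSG00000047085, chr7:44429018-44463351, plus strand) stood at 23.5, 16.9 and 26.8 FPKM in cKO polysome libraries, against 9.30, 7.78 and 7.74 in cHet polysome libraries. Its input values were 20.3, 12.3 and 22.4 FPKM in cKO, against 5.38, 5.37 and 5.29 in cHet. The cHet input libraries were nearly level (5.35 ± 0.0518 FPKM, SD, n = 3) and all cKO libraries lay above them, with log2 differences of 1.41 in polysome and 1.71 in input RNA. Its paralog Lrrc4c (ENSMUSG00000050587, chr2:96318169-97631666, plus strand) had 0.911, 1.11 and 0.862 FPKM in cKO polysome libraries, against 1.09, 1.13 and 0.799 in cHet polysome libraries. In input RNA it had 0.787, 0.721 and 0.393 FPKM in cKO, against 0.677, 0.558 and 0.392 in cHet. Both pairs of groups overlapped, with log2 differences of -0.05 and 0.17. Lrrc4c was under 1 FPKM in every input library and was not tested there.

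The LRFN genes, also called SALMs, encode synaptic adhesion-like molecules. Lrfn3 (ENSMUSG00000036957, chr7:30355489-30362772, minus strand) stood at 17.6, 16.1 and 24.4 FPKM in cKO polysome libraries, against 13.1, 13.0 and 13.2 in cHet polysome libraries. Its input values were 26.7, 16.7 and 31.7 FPKM in cKO, against 8.75, 9.55 and 9.21 in cHet. The genotype difference was 0.54 (log2) in polysome and 1.39 in input RNA, without overlap in either. Lrfn4 (ENSMUSG00000045045, chr19:4611785-4615667, minus strand) stood at 55.0, 60.0 and 75.7 FPKM in cKO polysome libraries, against 48.5, 47.4 and 49.4 in cHet polysome libraries. The input libraries held 41.6, 37.3 and 71.8 FPKM in cKO, against 28.5, 28.6 and 31.0 in cHet. All cKO libraries lay above the cHet libraries, by 0.38 (log2) in polysome and 0.71 in input RNA, and replicate 3 was the highest cKO library in both.

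The LRRN genes encode neuronal leucine-rich repeat proteins of the cell surface. Lrrn3 (ENSMUSG00000036295, chr12:41451668-41486431, minus strand) stood at 5.21, 4.99 and 5.14 FPKM in cKO polysome libraries, against 1.93, 2.17 and 2.71 in cHet polysome libraries. The cKO values were the most even of any gene of the set in that group (5.11 ± 0.109 FPKM, SD, n = 3), and the log2 difference was 1.15. In input RNA, Lrrn3 had 5.07, 3.45 and 2.16 FPKM in cKO, against 2.51, 2.75 and 2.82 in cHet, with overlap and a log2 difference of 0.31. Lrrn1 (ENSMUSG00000034648, chr6:107529768-107570214, plus strand) stood at 20.8, 13.7 and 11.3 FPKM in cKO polysome libraries, against 7.35, 9.30 and 12.6 in cHet polysome libraries. Its input values were 25.3, 24.8 and 21.5 FPKM in cKO, against 21.8, 22.2 and 24.6 in cHet. Both pairs of groups overlapped, with log2 differences of 0.63 in polysome and 0.06 in input RNA.

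The FLRT genes encode fibronectin and leucine-rich transmembrane proteins, which steer migrating cells and modulate FGF signalling. Flrt3 (ENSMUSG00000051379, chr2:140650914-140671469, minus strand) stood at 18.9, 12.9 and 17.2 FPKM in cKO polysome libraries, against 11.4, 11.9 and 9.37 in cHet polysome libraries. Its input levels were 23.6, 15.9 and 10.4 FPKM in cKO, against 13.3, 13.0 and 13.2 in cHet. The polysome groups did not overlap (log2 difference 0.57), while in input RNA 1 cKO library lay below the cHet libraries and 2 above (0.26). Flrt2 (ENSMUSG00000047414, chr12:95692226-95785215, plus strand) stood at 20.3, 14.7 and 14.3 FPKM in cKO polysome libraries, against 12.8, 13.2 and 13.3 in cHet polysome libraries. The input levels were 24.1, 20.1 and 5.88 FPKM in cKO, against 17.7, 19.1 and 19.0 in cHet. Flrt2 had the only negative input difference of the set (-0.39, log2), and without cKO input replicate 3 the difference was 0.24. Its polysome difference was 0.31, without overlap.

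In polysome RNA, 8 of the 10 genes had all cKO libraries above all cHet libraries, and the groups overlapped for Lrrc4c and Lrrn1. The same held for 17.9% of 12877 tested genes. None of the 10 had all cKO libraries below all cHet libraries in either fraction, beside 1737 of 12877 genes in polysome and 1619 of 12977 genes in input RNA. In input RNA the count was 5 of 10, against 16.9% of 12977 tested genes, and the groups of the other 5 overlapped. The 5 without overlap were Lingo1, Lingo3, Lrrc4b, Lrfn3 and Lrfn4, the same 5 genes that are rich in GC. The median log2 difference of the 10 genes was 0.60 in polysome and 0.51 in input RNA, beside 0.02 and -0.01 over all tested genes. Lingo3 reached 1 FPKM in enough libraries to be tested only through the cKO groups, where it is high, so its place in these counts is no support for a difference. Lrrc4c is counted among the 10 in input RNA, though it was not tested there. Since the genotype contrast selected the genes, these counts describe them and show nothing further.

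Without cKO input replicate 3, both remaining cKO libraries lay above all cHet libraries for 10 of the 10 genes in input RNA, and for 24.5% of 12827 tested genes. Lingo3 and Lrrc4c reached 1 FPKM in fewer than 3 of these libraries, so they are counted among the 10 but not among the 12827. The log2 input difference without it was 0.24 for Flrt2, 0.55 for Flrt3, 0.62 for Lrrn3, 0.43 for Lrrc4c, 0.13 for Lrrn1 and 0.42 for Lrfn4, against -0.39, 0.26, 0.31, 0.17, 0.06 and 0.71 with it. For Lingo3, Lrrc4b, Lrfn3 and Lingo1 it was 2.23, 1.55, 1.19 and 1.05. In that library, Flrt2 deviated from the cHet mean by -1.65 (log2), and Lrrc4c, Flrt3, Lrrn3 and Lrrn1 by -0.36, -0.33, -0.30 and -0.09. The 5 GC-rich genes had their highest input deviations there, up to 3.09 for Lingo3. Over the 5 GC-rich genes the median deviation was 1.53, 0.86 and 1.78 in cKO input replicates 1, 2 and 3, and over the 5 GC-poor genes it was 0.49, 0.27 and -0.33. Removing a smooth trend of GC content and gene length from each library, a correction chosen after the data were seen, left input differences of 2.34 for Lingo3, 1.51 for Lrrc4b, 1.21 for Lrfn3, 1.13 for Lingo1, 0.50 for Lrfn4, 0.48 for Lrrn3, 0.47 for Flrt3, 0.08 for Lrrn1 and -0.12 for Flrt2. In polysome RNA, leaving out cKO replicate 1 left 8 of 10 genes without overlap, beside 21.9% of 12738 tested genes. The part of the replicate's base composition in the input values was not otherwise tested.

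**Figure D2:**
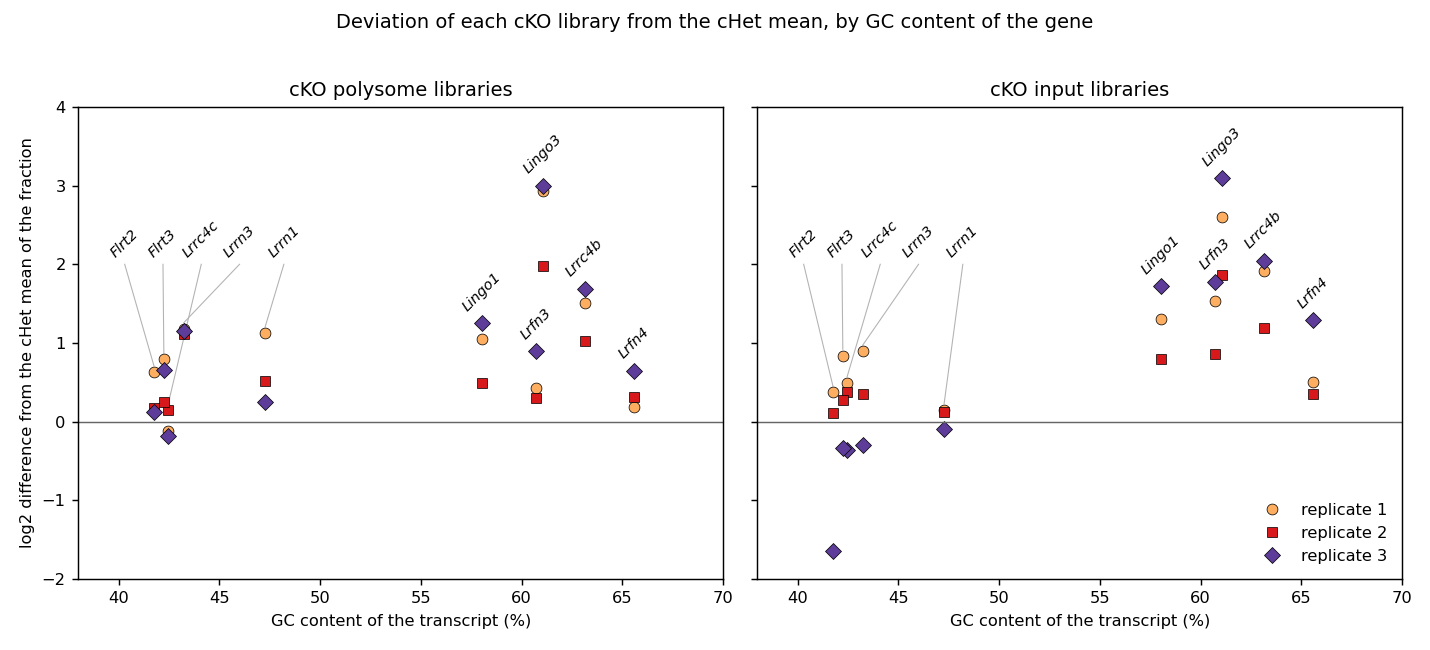
Log2 difference of each cKO library from the mean of the 3 cHet libraries of its fraction (vertical axis) against the GC content of the gene's transcript in percent (horizontal axis), for polysome (left) and input (right); each marker is 1 gene in 1 library. In cKO input replicate 3 the 5 genes under 50% GC lie below 0 (Flrt2 at -1.65), while the 5 genes above 50% GC have their highest input value there.

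The 10 genes were set beside other genes of like exon structure, leaving the 10 out. In polysome RNA, all cKO libraries lay above all cHet libraries for 26.5% of 1342 genes with 1 or 2 coding exons, for 15.4% of genes with 3 to 9, and for 22.3% of genes with 10 or more. In input RNA the shares were 35.3% of 1318 genes with 1 or 2 coding exons, 19.2% with 3 to 9 and 11.3% with 10 or more. Within the genes of 1 or 2 coding exons the input share was 44.2% for the 565 genes above 53.2% GC and 21.6% for the 347 genes below 46.7% GC. The median log2 difference was 0.17 in input RNA and 0.08 in polysome RNA for genes of 1 or 2 coding exons. The shares in input RNA followed both exon number and GC content. They include cKO input replicate 3, the library that stood apart by GC content, and are not given here without it. The shares in polysome RNA had no single direction with exon number. Within the genes of 1 or 2 coding exons the polysome share was 28.4% in the highest GC class and 25.3% in the lowest.

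**Figure D3:**
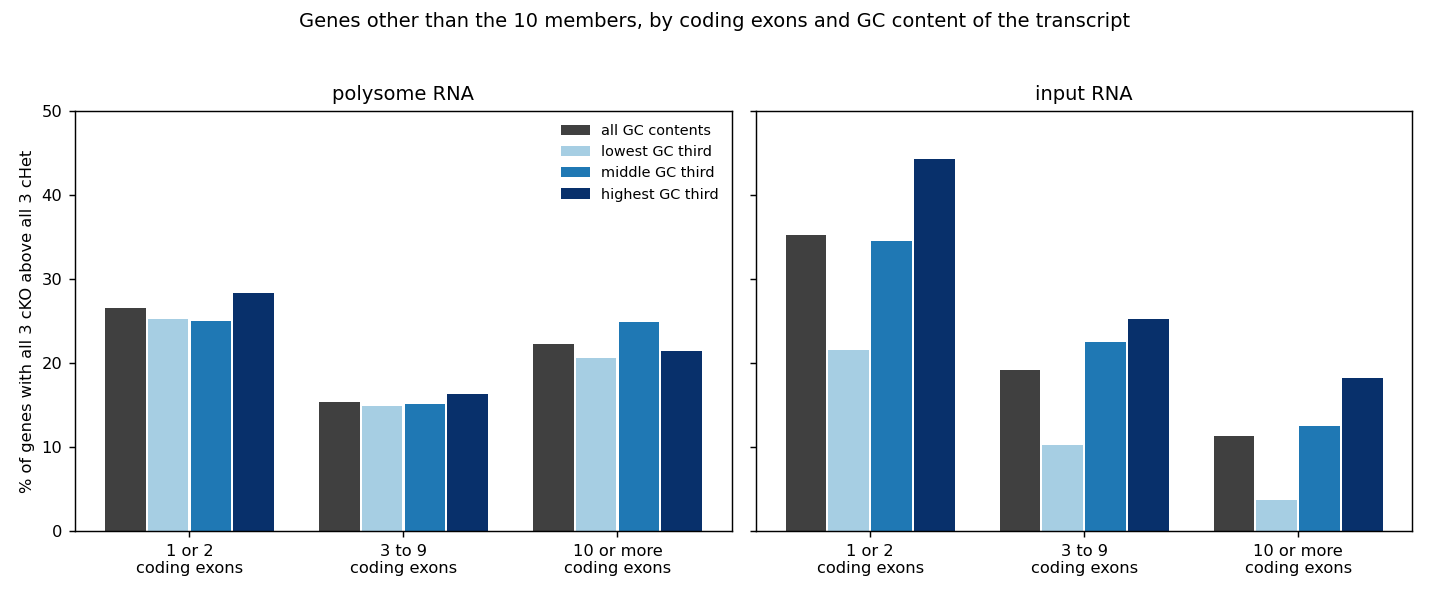
Percent of tested protein-coding genes other than the 10 with all 3 cKO libraries above all 3 cHet libraries (vertical axis). Bars are grouped by number of coding exons and by transcript GC content, for polysome RNA (left) and input RNA (right). The 3 GC classes are of equal size over all these genes together, and differ in size within an exon class. The input bars are highest for 1 or 2 coding exons and high GC (44.2%), and the polysome bar for all genes of 1 or 2 coding exons is 26.5%. The input bars include cKO input replicate 3, which stood apart by GC content.

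Whether the mRNAs were more or less abundant in polysomes than in input was tested with limma on all 12 libraries. FPKM is scaled within each library, so a positive value means a larger share of the polysome library, not more molecules. In cKO limb buds, 0 of the 10 genes were higher in polysome RNA and 1, Lrrn1, was lower. Over all 13610 tested genes 16.9% were higher and 15.6% lower. With scaling to protein-coding genes the 2306 higher and 2118 lower genes became 1684 and 2672. Lrrn1 averaged 15.3 ± 4.98 FPKM in cKO polysome RNA and 23.8 ± 2.09 FPKM in cKO input RNA (SD, n = 3 each), a log2 change of -0.69 (SE 0.23, adjusted p = 0.0361). This call was lost when any of 4 cKO libraries (input replicates 1 and 2, polysome replicates 2 and 3) was left out, with adjusted p-values of 0.0853 to 0.157, without the filter on low values (adjusted p = 0.0820), and in a fit of the 6 cKO libraries alone (adjusted p = 0.107). Lrrn3 (0.59, SE 0.24, adjusted p = 0.0785) and Lrrc4c (0.57, SE 0.29, adjusted p = 0.151) had the next largest cKO values and did not pass. Without cKO input replicate 1, Lrrn3 passed (0.88, adjusted p = 0.0106). Without cKO input replicate 3, Lrfn4 (0.68, adjusted p = 0.00384) and Flrt2 (-0.44, adjusted p = 0.0394) passed. Lrfn3 passed as lower in polysome RNA without cKO input replicate 2 (-0.61, adjusted p = 0.0313).

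In cHet limb buds, 3 of the 10 genes were higher in polysome RNA and 1 lower, against 27.3% and 25.9% of 13610 genes. With scaling to protein-coding genes the 3717 higher and 3525 lower genes became 2480 and 4534. Lrrn1 was again the lower one, at 9.74 ± 2.63 FPKM in cHet polysome RNA and 22.9 ± 1.49 FPKM in cHet input RNA (SD, n = 3 each), a log2 change of -1.26 (SE 0.23, adjusted p = 8.56e-04). Each of the 3 cHet polysome libraries lay below each cHet input library, and this call held without any single library. Lrfn4 was higher in cHet polysome RNA by 0.72 (log2, SE 0.21, adjusted p = 0.0132), with all its polysome libraries above all its input libraries. Lrrc4b was higher by 0.62 (SE 0.22, adjusted p = 0.0328) and Lrrc4c by 0.79 (SE 0.29, adjusted p = 0.0361). Lrrc4c reached 1 FPKM in exactly 3 of the 12 libraries, all of them polysome libraries, so it entered the test only through the fraction where it is high, and its call is no support for a difference. The Lrrc4b call did not hold without any 1 of the 6 cHet libraries (adjusted p up to 0.112), and that of Lrrc4c not without cHet input replicate 2 or 3 (up to 0.140). Without cHet polysome replicate 1 or 2, Lrrc4c no longer met the filter and was not tested. The Lrrc4b and Lrrc4c calls were also lost without the filter on low values, at adjusted p of 0.0729 and 0.0671, and with scaling to protein-coding genes, at 0.131 and 0.133. Lingo1 (0.59, adjusted p = 0.0517) and Lrfn3 (0.51, adjusted p = 0.0634) lay just outside the threshold. With lysate as a replicate block, these 2 passed, at adjusted p = 0.00557 and 0.0152, which made 6 of 10, beside 54.6% of all tested genes under the same block.

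**Figure D4:**
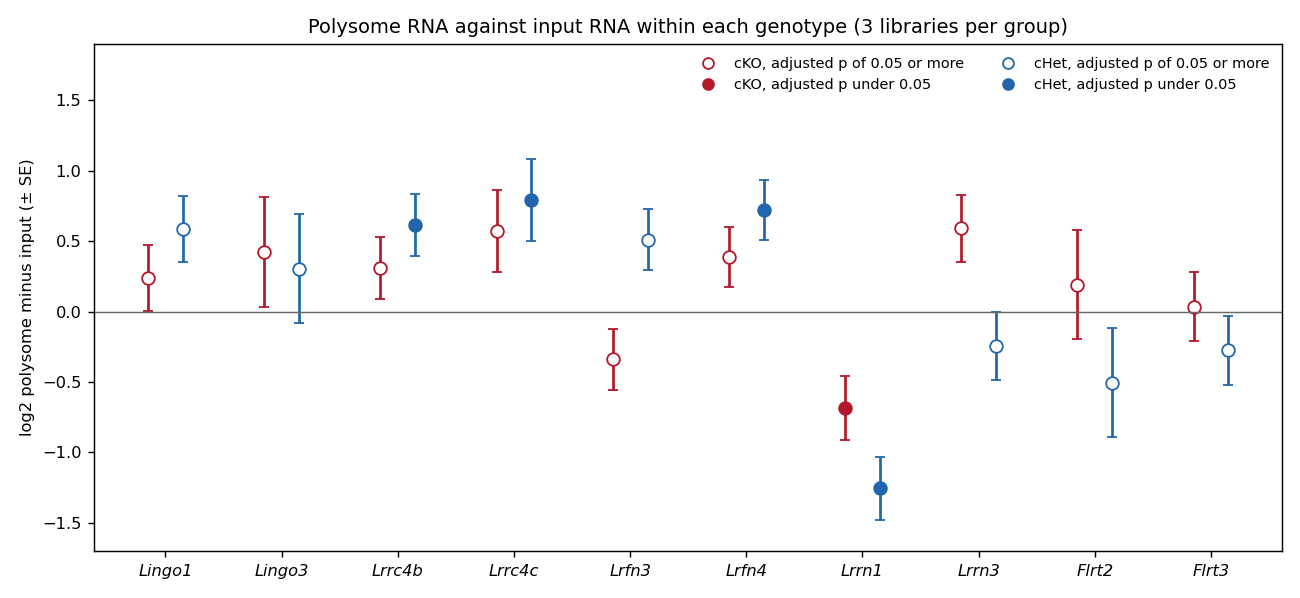
Log2 polysome minus input (vertical axis, error bars are the SE of the limma fit, 3 libraries per group) for the 10 genes in cKO (left of each pair) and cHet (right); filled circles passed an adjusted p of 0.05. Lrrn1 is the only gene filled in both genotypes, at -0.69 in cKO and -1.26 in cHet.

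The remaining polysome to input differences did not pass the threshold. In cKO they were 0.42 for Lingo3, 0.39 for Lrfn4, -0.34 for Lrfn3, 0.31 for Lrrc4b, 0.24 for Lingo1, 0.19 for Flrt2 and 0.04 for Flrt3, with adjusted p of 0.178 to 0.927. In cHet they were -0.50 for Flrt2, 0.31 for Lingo3, -0.27 for Flrt3 and -0.25 for Lrrn3, with adjusted p of 0.288 to 0.524. For Flrt2 and Flrt3, each cHet polysome library nevertheless lay below each cHet input library. The fit shares 1 spread over all 12 libraries, so the SE of Flrt2 (0.39) also holds its 5.88 FPKM in cKO input replicate 3. Its log2 ratios in the cHet lysates were -0.47, -0.53 and -0.52. The median over the 10 genes was 0.27 in cKO and 0.41 in cHet, beside 0.06 and 0.02 over all genes.

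The mean polysome to input ratio was lower in cKO than in cHet for both LRFN genes and higher for both LRRN genes. These differences are built from the genotype contrasts that selected the genes and have no test. Lrfn3 had log2 ratios of -0.60, -0.05 and -0.37 in the 3 cKO lysates, against 0.57, 0.44 and 0.52 in the cHet lysates, a difference of -0.85. Lrrn3 went the other way, with 0.04, 0.52 and 1.21 in the cKO lysates, against -0.36, -0.33 and -0.05 in the cHet lysates, a difference of 0.84. In both genes the sign of the ratio was opposite in every lysate of the 2 genotypes, but the cKO values of -0.05 and 0.04 lay near 0. Where 0 lies depends on how the libraries are scaled. The lysate ratios of Lingo1, Lrrc4b, Lrrn1 and Flrt2 also did not overlap between the genotypes. The share of all genes without such overlap is not given here. The other differences were 0.70 for Flrt2, 0.57 for Lrrn1, -0.35 for Lingo1, -0.33 for Lrfn4, 0.31 for Flrt3, -0.31 for Lrrc4b, -0.22 for Lrrc4c and 0.12 for Lingo3. Without cKO input replicate 3 the differences were 0.07 for Flrt2 and 0.01 for Flrt3, 0.53 for Lrrn3, 0.50 for Lrrn1, -0.65 for Lrfn3 and -0.05 for Lrfn4. The values of both FLRT genes and of Lrfn4 thus rested on that library. Those of the other 4 genes without it were 0.40 for Lingo3, -0.13 for Lingo1, -0.14 for Lrrc4b and -0.49 for Lrrc4c.

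The 5 families hold 9 further genes, of which 3 were tested in input and 2 in polysome RNA. Lrrn2, a paralog of Lrrn1 and Lrrn3, averaged 9.85 ± 2.74 FPKM in cKO polysome RNA and 3.77 ± 0.548 FPKM in cHet polysome RNA (SD, n = 3 each). Its input means were 8.10 ± 3.15 FPKM in cKO and 3.27 ± 0.0967 FPKM in cHet, and the groups did not overlap in either fraction. Lrfn1 averaged 26.4 ± 4.76 FPKM in cKO polysome RNA and 17.2 ± 1.10 FPKM in cHet polysome RNA, and 27.6 ± 9.06 FPKM in cKO input RNA and 12.48 ± 0.460 FPKM in cHet input RNA, also without overlap. Flrt1 had overlapping groups, at 0.793 ± 0.0517 FPKM in cKO polysome RNA and 0.953 ± 0.179 FPKM in cHet polysome RNA. Lrrn2 and Lrfn1 have GC contents of 60.4% and 63.5%, like the GC-rich members. None of the 9 passed limma's genotype test, and Lrrn2 and Lrfn1 had an unadjusted p under 0.05 in both fractions. Lingo2, Lingo4, Lrrc4, Lrfn2, Lrfn5 and Lrrn4 were under 1 FPKM throughout.

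Among 30 other extracellular leucine-rich repeat genes, 19 were tested in each fraction. In polysome RNA 10 had all cKO libraries above all cHet libraries and 0 below, and in input RNA 11 above and 2 below. Over all tested genes 17.9% lay above in polysome and 16.9% in input RNA. None passed limma's test, and neither did any other tested gene. An unadjusted p under 0.05 was found for 9 of the 19 in polysome and 8 in input RNA. Over all tested genes it was found for 2743 of 12877 and 1943 of 12977. Vasn, which encodes a TGF-beta binding protein of the cell surface, averaged 27.4 ± 10.7 FPKM in cKO polysome RNA and 8.72 ± 0.903 FPKM in cHet polysome RNA. Tpbg, the Wnt-modulating trophoblast glycoprotein, averaged 13.2 ± 3.70 FPKM in cKO polysome RNA and 5.23 ± 1.64 FPKM in cHet polysome RNA. Slitrk1 ran the other way in input RNA, at 0.877 ± 0.403 FPKM in cKO and 1.73 ± 0.211 FPKM in cHet. Between the fractions, 3 of 20 tested genes were higher and 5 lower in cKO polysome RNA, and 2 higher and 8 lower in cHet polysome RNA, beside the 16.9% and 15.6% of all genes in cKO and 27.3% and 25.9% in cHet.

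Of 25 genes encoding known binding partners of the 5 families, 21 were tested in polysome and 20 in input RNA. In polysome RNA 9 lay above without overlap in cKO and 1 below, and in input RNA 10 above and 0 below. The same 17.9% and 16.9% of all genes lay above. None passed limma's test, and 6 had an unadjusted p under 0.05 in each fraction, beside 2743 of 12877 and 1943 of 12977 tested genes. Rtn4r is in this list and in that of the 30 genes above. Adgrl2, a latrophilin bound by FLRT proteins, averaged 16.7 ± 3.97 FPKM in cKO polysome RNA and 9.80 ± 0.732 FPKM in cHet polysome RNA. Unc5b, a netrin receptor that also binds FLRT proteins, averaged 27.6 ± 6.38 FPKM in cKO input RNA and 17.2 ± 3.11 FPKM in cHet input RNA. Tenm3, a teneurin that binds latrophilins, was lower in polysome than in input RNA in cKO (-1.51, SE 0.24, adjusted p = 0.00120) and in cHet (-1.92, SE 0.24, adjusted p = 1.42e-04). In all, 7 of 21 partners were lower in cKO polysome RNA and 8 in cHet polysome RNA, and 1 and 3 were higher, beside 15.6% and 25.9% of all genes lower and 16.9% and 27.3% higher.

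Since the 5 families are best known from neurons, markers of other cell types were set beside the genotype values. The summed level of 9 neuron markers was 33.2 to 49.4 FPKM in cKO polysome libraries and 33.4 to 44.5 FPKM in cHet polysome libraries. In input RNA it was 35.0 to 40.4 FPKM in cKO and 33.5 to 39.0 FPKM in cHet, so that the summed ranges overlapped in both fractions. Gap43 carried most of the sum (33.2 FPKM in cKO polysome RNA and 32.8 FPKM in cHet polysome RNA), and single markers ran both ways without overlap. Tubb3 averaged 6.84 FPKM in cKO polysome RNA and 2.37 FPKM in cHet polysome RNA, and 9.46 FPKM in cKO input RNA and 5.90 FPKM in cHet input RNA. Stmn2 averaged 0.997 FPKM in cKO polysome RNA and 1.51 FPKM in cHet polysome RNA, and 0.902 FPKM in cKO input RNA and 1.23 FPKM in cHet input RNA. The sum of 6 Schwann cell markers was 15.9 to 24.4 FPKM in cKO polysome libraries and 12.3 to 15.1 FPKM in cHet polysome libraries, and the input ranges overlapped. The sum of 7 epidermis markers was 217 to 420 FPKM in cKO polysome libraries and 162 to 172 FPKM in cHet polysome libraries, with 367 to 397 FPKM in cKO input and 304 to 312 FPKM in cHet input. The sum of 8 macrophage markers was 45.3 to 74.2 FPKM in cKO polysome libraries and 30.8 to 41.3 FPKM in cHet polysome libraries, with 40.8 to 56.4 FPKM in cKO input and 32.4 to 37.9 FPKM in cHet input. Epidermis and macrophage sums were thus higher in cKO without overlap in both fractions. The sum of 8 limb mesenchyme markers was 1017 to 1225 FPKM in cKO input and 738 to 903 FPKM in cHet input, and overlapped in polysome RNA. Sums of endothelium, skeletal muscle and red cell markers overlapped between the genotypes in both fractions. No marker of these lists was at 0 in a group. The part of neuron, epidermis, macrophage, Schwann cell or mesenchyme RNA in the values of the 10 genes was not tested.

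Across the 12 libraries, the genes of the set that followed their mean standardised profile most closely were Lrrc4b (Pearson r = 0.923), Lingo3 (0.912), Lingo1 (0.863) and Lrrn3 (0.862), each of which is part of that mean. Lrrc4c (0.263), Flrt2 (0.170) and Lrrn1 (0.167) followed it least. The 5 protein-coding genes outside the set with the most similar profile were Tigd2 (0.969), Fli1 (0.968), Trim13 (0.963), E130308A19Rik (0.963) and Kbtbd2 (0.961). Tigd2 averaged 13.6 ± 1.21 FPKM in cKO polysome RNA and 5.83 ± 0.473 FPKM in cHet polysome RNA (SD, n = 3 each). Its input means were 12.2 ± 5.25 FPKM in cKO and 5.36 ± 0.153 FPKM in cHet. The 12 points share 2 genotypes and 2 fractions, so the correlations describe a shared order of groups.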

How the data were processed

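RNA-seq reads were aligned with HISAT2 2.0.5 and counted with featureCounts 1.5.0-p3 on mm10, per the submitters' processing notes. FPKM values were deposited by the authors for 54532 genes in 12 libraries (4 groups of 3). FPKM times gene length was a whole number of reads (within 0.01) for 100% of values and gave the depths. FPKM depends on what else a library holds. In R 4.3.3, limma 3.58.1 (intensity trend) was run on log2(FPKM + 0.1), on genes with an FPKM of 1 in at least 3 fitted libraries, two-sided, with Benjamini-Hochberg adjustment over all tested genes at 0.05. Fold changes on this scale understate low genes. Genotypes were compared within a fraction (6 libraries). Polysome and input RNA were compared within a genotype in a fit of 4 means to 12 libraries. The fit was also run on simulated data, drawn as independent normal values with 1 spread per gene. These held no library that stands apart by GC content and no shared lysates, and the outcome is not given here. Input and polysome libraries of 1 number come from 1 lysate, as the design describes, and their deviations from their groups correlated at r = 0.05 to 0.25. Between cKO and cHet libraries of 1 number, r was -0.28 to 0.17, a range that overlaps the first. Transcript structure and sequences came from GENCODE M21, which gave 98.3% of its shared genes the same coordinates. Alternatives were another pseudocount, filter, scaling, voom, a block, fit on fewer or more libraries, removed GC and length trends (chosen after seeing the data), and each library left out. The block was the lysate in comparisons of fractions, and only the replicate number in comparisons of genotypes. Named genes outside the 10 were up to 4 per list with the largest genotype difference, and the 5 with the profile most like the members. The members and lists were chosen with earlier results of these data known.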

Additional observations from a re-analysis of the deposited data

Results flagged for a closer look

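For 2 genes the polysome to input ratio had opposite signs in the 2 genotypes in every lysate, with some values near 0. The place of 0 depends on the scaling, and the share of all genes with such a pattern is not given here. The lysate ratios of Lingo1, Lrrc4b, Lrrn1 and Flrt2 did not overlap between the genotypes either. Lrfn3 had a lower ratio in cKO, with a difference between the log2 ratios of -0.85, all 3 cKO lysates being below 0 and all 3 cHet lysates above 0. Lrrn3 had a higher ratio in cKO, with a difference of 0.84, all 3 cKO lysates being above 0 and all 3 cHet lysates below 0. Without cKO input replicate 3 the differences were -0.65 and 0.53. Neither was tested, because the genotype contrasts that selected the genes enter it. In cKO the input term of Lrfn3 was 31.7 FPKM and that of Lrrn3 2.16 FPKM in replicate 3, the library that stands apart by GC content.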

How the results depend on the processing

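Of 633 single-gene values under the alternatives run, 13 newly passed, 19 no longer passed and 14 changed sign. Of the 14, 8 were polysome to input values and 6 untested genotype differences, 4 of them of Lrrc4c, which lay near 0; the others were input differences, Flrt2 at 0.24 without cKO input replicate 3 and Flrt3 at -0.03 without cKO input replicate 1. With a pseudocount of 1, Lingo3 differed between genotypes by 1.85 in polysome and 1.66 in input RNA, and Lrrn3 by 0.91 in polysome RNA. The count of genes called between genotypes in polysome RNA, 0, became 42 with a replicate block and 184 when fitted on all 12 libraries. That block pairs cKO and cHet libraries by replicate number only, and these come from different lysates. The count was 0 to 231 with a library left out (231 without cKO polysome replicate 2, 160 without cKO polysome replicate 1). In input RNA, 0 became 226 with GC and length trends removed, 82 when fitted on all 12 libraries, and 0 to 326 with a library left out (326 without cKO input replicate 3, 47 without cKO input replicate 2). Input genes of the 10 without overlap numbered 5 to 10. In cKO, the polysome to input calls among the 10 were 0 without a filter, 2 with trends removed, 0 in a fit of 6 libraries and 0 to 3 with a library left out. All calls there numbered 934 in the fit of 6 libraries and 2441 to 6023 with a library left out, against 4424. In cHet, the calls among the 10 were 2 without a filter, 2 with protein-coding scaling, 7 in the fit of 6 libraries (where 74.1% of all genes were called) and 2 to 3 with a library left out. Protein-coding scaling shifted the all-gene median of these comparisons by -0.13 in cKO and -0.22 in cHet. The median ratio difference between genotypes ranged over -0.185 to 0.164 with a library left out. In cKO, the polysome to input value of Flrt3 became -0.0942 with protein-coding scaling and -0.103 with trends removed, and ranged over -0.261 to 0.325 with a library left out. That of Flrt2 ranged over -0.436 to 0.572 and of Lingo1 over -0.000694 to 0.460 in cKO, and that of Lingo3 over -0.00667 to 0.650 in cHet. The cause was not tested. The lysate block changed no call of the 10 other than those of Lingo1 and Lrfn3 in cHet. Low counts limit Lrrc4c and, in cHet, Lingo3.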
